A study of Mus musculus with 9 samples.

Results

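The 38 genes described here are interferon-stimulated genes, a set chosen by symbol: genes induced by type I and type II interferon together with sensors and factors of the same response. All 38 were found among the 53342 genes of the deposited count table, and 36 of them passed a filter on low counts and were tested with 12511 genes in all. They were followed in bone-marrow-derived macrophages, which are macrophages grown in culture from marrow, here of C57BL/6J mice of both sexes aged 8 to 12 weeks. All 9 cultures received homogenate of mouse spinal cord at 1% weight per volume (10 mg/mL) for 24 h, made from cords pooled over C57BL/6 mice aged 8 to 20 weeks with the meninges taken off, and there was no culture without homogenate. The groups differed in what the cells received for 2 h before: vehicle, rapamycin or Torin-2, with 3 biological replicates each. How much of either compound was added is not given in the sources used here. Torin-2 inhibits the kinase mTOR at its ATP site and so acts on both of its complexes, while rapamycin binds FKBP12 and acts chiefly on complex mTORC1. Per the series design, Torin-2 lowered lipid droplets in these cells, and rapamycin, which did not affect lipid accumulation, was the control for inhibition of mTORC1.

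Type I interferons, such as interferon beta, act through the receptor Ifnar1/Ifnar2 and the kinases Jak1 and Tyk2, which activate a complex that holds Stat2 and Irf9. That complex binds the interferon-stimulated response element (ISRE) in promoters, while type II interferon (gamma) acts through Ifngr1/Ifngr2 on promoters with the gamma-activated site (GAS). Macrophages carry out much of this response, which covers sensors of foreign nucleic acid, proteins that block viral replication, GTPases that attack intracellular pathogens, and enzymes that switch the signal off.

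The promoters of 30 of the 38 genes were found in the RefSeq promoter table (build GRCm38.p6, 250 bases before to 50 bases after each start). The ISRE core, searched on both strands as GAAA, any 2 bases and GAAA again, was in the window of 18 of these 30 genes (60%), against 3.99% of 27025 genes with a window in the table and 3.44% of all 32851 windows. The GAS core, searched as TTCNNNGAA, was in 8 of the 30 (26.7%), against 9.55% of all genes and 8.3% of windows. Such a match is a run of letters and not a mapped binding site. The windows printed here are of the genes, among those at 5 CPM (counts per library, scaled to a common size) or more, with the largest positive and negative difference from vehicle for each compound (Irf1, Ifi35, Oasl2 and Bst2), together with Isg15 and Stat2; capitals mark the matches, which can overlap each other, and the sequence runs 5′ to 3′ on the gene's strand. For Irf1 on the plus strand at chr11:53769764-53770063, the capitals mark a GAS core that begins 90 bases before the start.
Irf1: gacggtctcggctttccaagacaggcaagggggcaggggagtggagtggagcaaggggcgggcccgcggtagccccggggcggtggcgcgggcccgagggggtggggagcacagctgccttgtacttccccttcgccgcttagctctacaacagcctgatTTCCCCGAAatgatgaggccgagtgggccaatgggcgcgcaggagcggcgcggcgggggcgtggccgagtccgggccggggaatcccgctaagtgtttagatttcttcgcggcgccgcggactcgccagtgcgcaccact
For Oasl2 on the plus strand at chr5:114896684-114896983, neither core was found.
Oasl2: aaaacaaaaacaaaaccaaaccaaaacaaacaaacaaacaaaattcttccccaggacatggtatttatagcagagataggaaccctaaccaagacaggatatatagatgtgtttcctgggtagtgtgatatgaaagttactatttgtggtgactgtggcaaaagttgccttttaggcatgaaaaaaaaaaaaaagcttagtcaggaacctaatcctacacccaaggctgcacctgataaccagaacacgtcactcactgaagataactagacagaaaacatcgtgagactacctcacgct
For Isg15 on the minus strand at chr4:156200769-156201068, the capitals mark 3 overlapping ISRE cores, which begin 78, 72 and 66 bases before the start.
Isg15: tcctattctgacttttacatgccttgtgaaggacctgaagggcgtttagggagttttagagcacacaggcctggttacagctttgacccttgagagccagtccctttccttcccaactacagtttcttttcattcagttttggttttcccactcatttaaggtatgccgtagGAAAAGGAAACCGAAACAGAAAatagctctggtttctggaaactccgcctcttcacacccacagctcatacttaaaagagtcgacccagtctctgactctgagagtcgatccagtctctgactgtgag
For Bst2 on the minus strand at chr8:71537423-71537722, the capitals mark a GAS core that begins 136 bases before the start and 2 ISRE cores. The ISRE cores begin 130 and 124 bases before the start and overlap each other, and only the one at 130 overlaps the GAS core.
Bst2: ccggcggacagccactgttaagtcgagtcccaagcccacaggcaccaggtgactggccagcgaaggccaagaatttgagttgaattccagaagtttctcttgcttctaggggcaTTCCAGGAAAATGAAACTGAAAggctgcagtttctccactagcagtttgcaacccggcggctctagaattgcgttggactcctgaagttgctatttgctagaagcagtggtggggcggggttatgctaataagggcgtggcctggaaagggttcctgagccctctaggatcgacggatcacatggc
For Ifi35 on the plus strand at chr11:101448162-101448461, a GAS core lies just after the start.
Ifi35: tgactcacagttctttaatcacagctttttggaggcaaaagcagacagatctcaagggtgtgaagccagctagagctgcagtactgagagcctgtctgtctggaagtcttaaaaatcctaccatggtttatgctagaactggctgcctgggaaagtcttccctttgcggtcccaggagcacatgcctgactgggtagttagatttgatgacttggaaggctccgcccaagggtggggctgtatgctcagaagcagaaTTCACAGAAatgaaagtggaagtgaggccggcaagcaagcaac
For Stat2 on the plus strand at chr10:128270248-128270547, the capitals mark an ISRE core on the opposite strand, 222 bases before the start.
Stat2: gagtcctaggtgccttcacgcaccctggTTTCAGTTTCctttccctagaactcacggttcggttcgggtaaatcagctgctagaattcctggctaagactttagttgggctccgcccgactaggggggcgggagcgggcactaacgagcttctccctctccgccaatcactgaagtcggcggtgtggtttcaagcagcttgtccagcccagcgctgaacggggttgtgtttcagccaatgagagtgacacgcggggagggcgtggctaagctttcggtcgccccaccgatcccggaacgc

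Values are given in CPM scaled by edgeR's TMM factors, in the order of replicates 1, 2 and 3, and fold changes are on the log2 scale with their standard error (SE). The test was edgeR's quasi-likelihood test with p-values adjusted by the Benjamini-Hochberg method over all 12511 genes, at a threshold of 0.05. Library totals ran from 16116666 to 24044329 counts. The 12 macrophage markers looked at were all tested, with a summed level of 13000 to 17800 CPM with vehicle, 21200 to 23000 with rapamycin and 16100 to 18000 with Torin-2; 4 were higher and 4 lower with Torin-2, and 8 higher and 3 lower with rapamycin. The 6 microglia markers, 4 of them tested, stood in sum at 356 to 388, 275 to 312 and 238 to 262 CPM in the same order, and 3 were lower with each compound. Their part in the results was not tested. Of the other markers, 7 of 10 T and NK cell markers, Cd3e among them, were at 0 counts in every library. The 10 myelin and oligodendrocyte markers, none at 0 in every library, are genes of the homogenised cord. Their sum was 482 to 616 CPM with vehicle, 694 to 849 with rapamycin and 368 to 425 with Torin-2, most of it Mbp. Of the 7 tested, 4 were lower and 0 higher with Torin-2 (beside 65.4% of all genes called). With rapamycin 3 were higher and 1, Cnp, was lower (beside 50.8%). How much of any interferon-stimulated transcript came from the cord was not tested. In such bulk samples, fewer cells of a type and less RNA per cell cannot be told apart. The comparisons of Torin-2 and of rapamycin with vehicle share the vehicle libraries.

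Summed over the 38 genes, the level with vehicle was 640.1, 551.8 and 799.2 CPM, with rapamycin 713.5, 700.7 and 872.1 CPM, and with Torin-2 766.4, 694.1 and 951.3 CPM. The groups overlapped, and replicate 3 was the highest library of each. Against vehicle, Torin-2 cultures had 14 of the 36 tested genes higher and 3 lower, with 19 that did not pass. That is 47.2% of the 36, beside 65.4% of all 12511 tested genes; 38.9% were higher beside 32.5%, and 8.33% lower beside 32.9%. With rapamycin, 10 were higher, 3 lower and 23 did not pass, or 36.1% called beside 50.8% of all genes; 27.8% were higher beside 24.6%, and 8.33% lower beside 26.2%. Torin-2 set directly against rapamycin had 8 higher, 4 lower and 24 that did not pass, or 33.3% called beside 48.2%; 22.2% were higher beside 24.2%, and 11.1% lower beside 24.1%. Without the block, the share of these genes that passed was below the share of all genes in each comparison. Their median log2 difference was 0.33, 0.21 and 0.14 in the 3 comparisons, beside -0.01, 0.00 and 0.00 for all genes. Ifit1, Mx1, Oas2, Gbp2 and Gbp3 stood below the filter's level of 0.483 CPM in some library, so their place among the tested genes rests on the others. With vehicle, 0 libraries of Gbp3, 1 of Oas2 and 2 of Gbp2 reached that level, against 3 of each with Torin-2. The counts above include Oas2, Gbp2 and Gbp3 as higher with Torin-2 and Gbp3 as higher with rapamycin. With the replicate number as a block, Torin-2 against rapamycin had 13 higher and 6 lower, or 52.8% called, close to the 54.6% of all genes. Blocked, Torin-2 against vehicle had 18 and 3 (58.3%, beside 69.6%) and rapamycin against vehicle 12 and 3 (41.7%, beside 56%). Without the block, leaving out 1 library at a time gave from 5 to 9 higher and from 2 to 5 lower for Torin-2 against rapamycin: 5 higher without Torin-2 replicate 3, and 2 lower without rapamycin replicate 1 or 3 or Torin-2 replicate 1 or 2. For rapamycin against vehicle, 1 gene in place of 3 was lower without vehicle replicate 3 or rapamycin replicate 1.

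**Figure D1:**
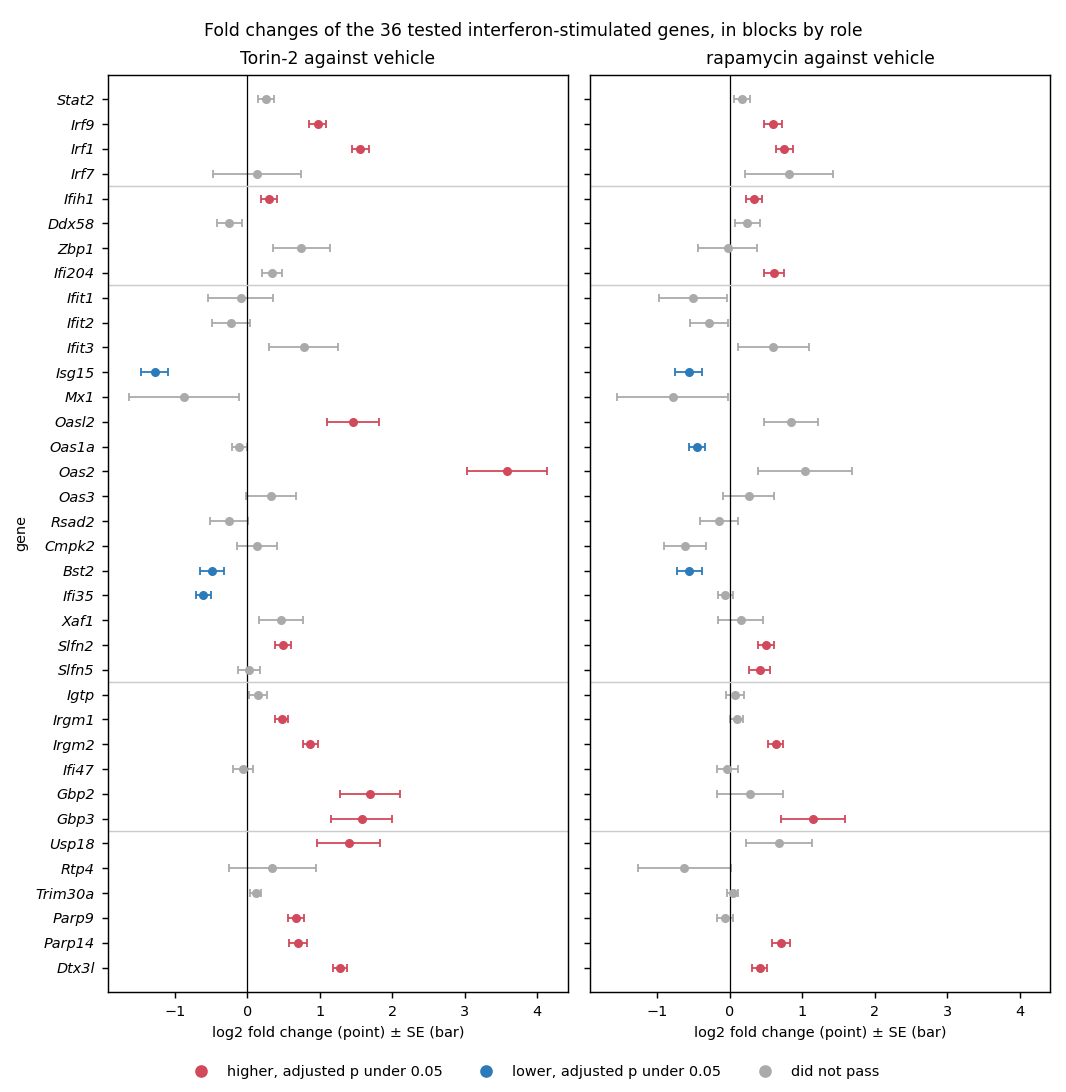
Log2 fold change (point) and SE (bar) of the 36 tested interferon-stimulated genes for Torin-2 against vehicle (left) and rapamycin against vehicle (right), in blocks by role from signalling factors at the top to feedback genes at the bottom. Red marks the 14 and 10 genes that were higher, blue the 3 and 3 that were lower and grey those that did not pass; Oas2 lies farthest to the right at 3.58 with Torin-2, and Isg15 farthest to the left at -1.27.

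Of the transcription factors of the pathway, Irf1 and Irf9 rose with both compounds and more with Torin-2. In the filtered fit of all 9 libraries without the replicate block, Stat2 and Irf7 did not pass in any of the 3 comparisons. Irf1, a factor induced chiefly by interferon gamma and itself a driver of antiviral genes, was at 10.3, 8.64 and 11 CPM with vehicle, 17.1, 14.7 and 18.9 with rapamycin, and 32.0, 27.3 and 29.2 with Torin-2. The 3 groups did not overlap, in the order vehicle, rapamycin, Torin-2. The log2 fold change was 1.56 (SE 0.118, edgeR adjusted p = 2.98e-07) for Torin-2 and 0.76 (SE 0.121, edgeR adjusted p = 0.000297) for rapamycin against vehicle, and 0.80 (SE 0.114, edgeR adjusted p = 0.000125) between the compounds. Irf9 (chr14:55603571-55610030), the DNA-binding subunit of the type I complex, showed the same order, with 18.6, 18.2 and 24.2 CPM with vehicle, 28.4, 28.9 and 35.0 with rapamycin, and 39.8, 37.1 and 42.5 with Torin-2. No library of a group overlapped with another group. Its log2 fold change was 0.97 (SE 0.119, edgeR adjusted p = 1.65e-05) for Torin-2 and 0.60 (SE 0.12, edgeR adjusted p = 0.00138) for rapamycin, and 0.37 (SE 0.117, edgeR adjusted p = 0.0204) between the compounds. The last call was lost without rapamycin replicate 1 (edgeR adjusted p = 0.0778) or 2 (0.0748) or Torin-2 replicate 1 (0.0527) or 3 (0.0767). Exons of Irf9 overlap those of Rnf31, a ubiquitin ligase subunit that was also higher with Torin-2 (log2 fold change 1.15), so reads of the pair may be shared.

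Stat2, the partner of Irf9, was at 21.9, 18.1 and 22.4 CPM with vehicle, 25.4, 22.3 and 22.6 with rapamycin, and 26.5, 21.2 and 27.2 with Torin-2. These ranges overlap, and the log2 fold change for Torin-2 was 0.26 (SE 0.113, edgeR adjusted p = 0.0591). It passed with the replicate block (edgeR adjusted p = 0.00995), without a filter (0.0245), without vehicle replicate 3 (0.0434) and without Torin-2 replicate 2 (0.0152). Irf7, the factor that amplifies interferon alpha production, varied more between replicates than between groups, at 19.4, 11.9 and 57.5 CPM with vehicle, 32.1, 30.0 and 93.6 with rapamycin, and 25.0, 15.2 and 56.2 with Torin-2. Replicate 3 was 3.67, 3.02 and 2.8 times the mean of the other replicates of its group. The log2 fold change was 0.82 (SE 0.606, edgeR adjusted p = 0.287) for rapamycin and 0.14 (SE 0.612, edgeR adjusted p = 0.858) for Torin-2. Within each replicate number, rapamycin was 1.65, 2.51 and 1.63 times vehicle. Without vehicle replicate 3 the rapamycin difference was 1.73 (edgeR adjusted p = 0.0266), and with the block the rapamycin difference passed at 0.89 (edgeR adjusted p = 2.03e-05). Blocked, Irf7 was also lower with Torin-2 than with rapamycin (-0.70, edgeR adjusted p = 0.000155), while Torin-2 against vehicle did not pass (edgeR adjusted p = 0.159). Exons of Irf7 overlap those of Phrf1.

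**Figure D2:**
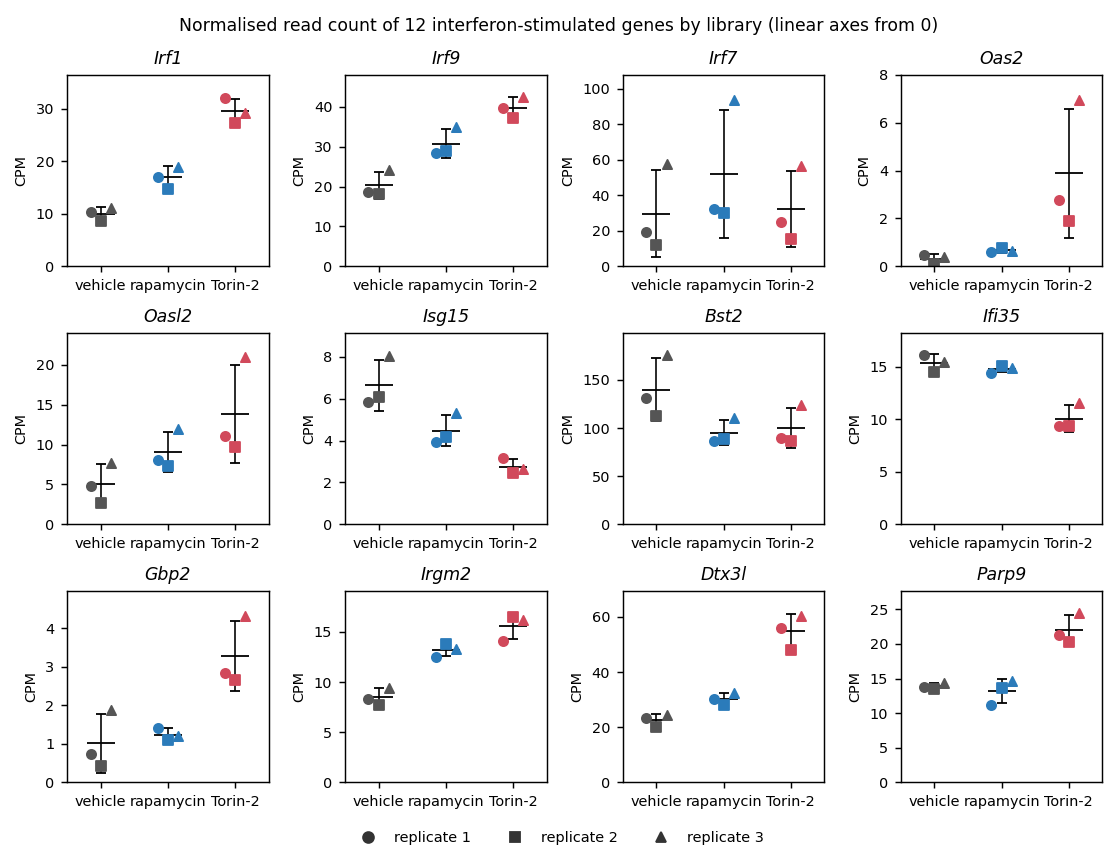
Normalised read count (CPM, linear axes from 0) of 12 interferon-stimulated genes in each of the 9 libraries; circles, squares and triangles are replicates 1, 2 and 3, the long line is the group mean and the bars are 1 SD. Irf1, Irf9 and Dtx3l climb from vehicle over rapamycin to Torin-2, Isg15 steps down in the same order, and the triangle lies highest in every group for Irf7, Oasl2 and Bst2.

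Of the 4 sensors of nucleic acid tested, Ifih1 was higher with Torin-2 (beside 65.4% of all genes called and 32.5% higher). Ifih1 and Ifi204 were higher with rapamycin (beside 50.8% and 24.6%). Ddx58 was lower with Torin-2 than with rapamycin (beside 48.2% called and 24.1% lower). Ifih1 (MDA5, a sensor of long double-stranded RNA) was at 28.0, 24.6 and 31.5 CPM with vehicle, 35.2, 32.0 and 39.2 with rapamycin, and 33.4, 31.7 and 38.7 with Torin-2. Both treated groups lay above every vehicle library, with log2 fold changes of 0.34 (SE 0.11, edgeR adjusted p = 0.0224) for rapamycin and 0.30 (SE 0.109, edgeR adjusted p = 0.0277) for Torin-2. Leaving out vehicle replicate 1 ended the calls (edgeR adjusted p = 0.0609 for rapamycin and 0.0693 for Torin-2), and so did leaving out vehicle replicate 2 (0.0863 and 0.11). The rapamycin call was also lost without rapamycin replicate 3 (edgeR adjusted p = 0.091), and the Torin-2 call without Torin-2 replicate 3 (0.128). Under library totals alone, the rapamycin difference was 0.24 and did not pass (edgeR adjusted p = 0.0664).

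Ifi204, a member of a family of near-identical DNA-sensing genes, was at 34.1, 33.9 and 41.4 CPM with vehicle, 52.8, 50.0 and 64.2 with rapamycin, and 42.2, 39.1 and 56.8 with Torin-2. The rapamycin group lay above vehicle without overlap, while Torin-2 lay between and overlapped with both. The rise with rapamycin was 0.61 (SE 0.141, edgeR adjusted p = 0.0035); Torin-2 against vehicle was 0.34 (SE 0.141, edgeR adjusted p = 0.0516) and passed with the block (0.000367), as did the lower level with Torin-2 than with rapamycin (-0.28, edgeR adjusted p = 0.00164). Torin-2 against vehicle also passed without vehicle replicate 3 (edgeR adjusted p = 0.0224), Torin-2 replicate 2 (0.0244) or rapamycin replicate 3 (0.0396), and by DESeq2 (adjusted p = 0.0292), and Torin-2 against rapamycin without Torin-2 replicate 3 (0.0122). Ddx58 (RIG-I, a sensor of short viral RNA ends) was at 14.1, 9.61 and 15.8 CPM with vehicle, 16.3, 14.0 and 16.7 with rapamycin, and 9.31, 11.2 and 12.7 with Torin-2. Neither compound passed against vehicle, except Torin-2 without vehicle replicate 2 (-0.43, edgeR adjusted p = 0.0189); Torin-2 was lower than rapamycin by a log2 value of -0.49 (SE 0.173, edgeR adjusted p = 0.034). That call was lost without rapamycin replicate 1 (edgeR adjusted p = 0.0857) or 3 (0.0913) or Torin-2 replicate 1 (0.127) or 2 (0.0747), and under library totals alone (0.0531). Zbp1, which senses left-handed nucleic acid and can set off necroptosis, was at 1.80, 0.825 and 3.18 CPM with vehicle, 1.29, 1.99 and 2.36 with rapamycin, and 3.48, 2.44 and 3.78 with Torin-2. Torin-2 overlapped with vehicle and the difference was 0.75 (SE 0.389, edgeR adjusted p = 0.112); blocked, Zbp1 passed against vehicle (0.0264) and against rapamycin (0.0468). Without vehicle replicate 3, the Torin-2 difference from vehicle was 1.29 (edgeR adjusted p = 0.00918).

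The antiviral effectors split. Of 16 tested, Oas2, Oasl2 and Slfn2 rose with Torin-2 and Isg15, Bst2 and Ifi35 fell, while 10 did not pass (beside 65.4% of all genes called); with rapamycin, Slfn2 and Slfn5 rose, Isg15, Bst2 and Oas1a fell and 11 did not pass (beside 50.8% called). Isg15, a ubiquitin-like protein that is joined to other proteins during antiviral defence, was at 5.82, 6.07 and 8.04 CPM with vehicle, 3.93, 4.17 and 5.31 with rapamycin, and 3.15, 2.44 and 2.63 with Torin-2. The 3 groups did not overlap and stood in the reverse order to Irf1. Its log2 fold change was -1.27 (SE 0.189, edgeR adjusted p = 8.32e-05) for Torin-2, -0.57 (SE 0.182, edgeR adjusted p = 0.0214) for rapamycin and -0.71 (SE 0.195, edgeR adjusted p = 0.0101) between the compounds. The rapamycin fall was lost without vehicle replicate 3 (edgeR adjusted p = 0.0944), rapamycin replicate 1 (0.0765) or rapamycin replicate 2 (0.07), and the difference between the compounds without all replicates numbered 3 (0.06). Isg15 is the gene shown above with 3 overlapping ISRE cores.

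Bst2 (tetherin, which holds budding virus at the cell surface) had the highest level per length of the 36 tested interferon-stimulated genes, a mean of 124 CPM per kb of exon. Its values were 130.9, 113.0 and 176.2 CPM with vehicle, 86.6, 88.9 and 110.6 with rapamycin, and 89.8, 86.8 and 123.5 with Torin-2. Rapamycin lay below every vehicle library, and the highest Torin-2 library lay above the lowest vehicle library. The falls were -0.55 (SE 0.169, edgeR adjusted p = 0.0168) for rapamycin and -0.48 (SE 0.168, edgeR adjusted p = 0.0243) for Torin-2. Without vehicle replicate 3 they were -0.35 (edgeR adjusted p = 0.065) and -0.29 (0.108). The rapamycin call was also lost without rapamycin replicate 1 (edgeR adjusted p = 0.0651) or 2 (0.0559), and the Torin-2 call without Torin-2 replicate 1 (0.092) or 2 (0.0936) and by DESeq2 (adjusted p = 0.0533). Within each replicate number, Bst2 was at 0.662, 0.787 and 0.628 times vehicle with rapamycin and 0.686, 0.768 and 0.701 times with Torin-2. Ifi35, an interferon-induced protein that binds Nmi, was at 16.1, 14.5 and 15.5 CPM with vehicle, 14.4, 15.0 and 14.8 with rapamycin, and 9.36, 9.30 and 11.5 with Torin-2. Only the Torin-2 libraries stood apart: the log2 fold change was -0.61 (SE 0.103, edgeR adjusted p = 0.000244) against vehicle and -0.55 (SE 0.104, edgeR adjusted p = 0.000973) against rapamycin, and rapamycin against vehicle was -0.06 (SE 0.101, edgeR adjusted p = 0.666).

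The oligoadenylate synthetase family, with Oas1a, Oas2 and Oas3 at chr5:120730333-120907521 and known for sensing double-stranded RNA, did not move together, and reads may be split between its near-identical copies. Oas2 was at 0.471, 0.0971 and 0.385 CPM with vehicle, 0.579, 0.758 and 0.652 with rapamycin, and 2.78, 1.91 and 6.95 with Torin-2. Every Torin-2 library was above every other library, and the log2 fold change of 3.58 (SE 0.555, edgeR adjusted p = 0.000119) against vehicle starts from vehicle levels near or below that of the filter. Against rapamycin it was 2.54 (SE 0.51, edgeR adjusted p = 0.00147). Oasl2 was at 4.80, 2.72 and 7.70 CPM with vehicle, 8.05, 7.34 and 12.0 with rapamycin, and 11, 9.67 and 20.9 with Torin-2. The Torin-2 group lay above vehicle without overlap, at 1.46 (SE 0.36, edgeR adjusted p = 0.00347). Rapamycin overlapped with vehicle at 0.85 (SE 0.369, edgeR adjusted p = 0.0748), and passed with the block (0.000268), as did Torin-2 against rapamycin (0.57, edgeR adjusted p = 0.00382). Without vehicle replicate 3 the rapamycin difference was 1.27 (edgeR adjusted p = 0.0135), and without Torin-2 replicate 3 it passed too (0.0395). Oas1a was at 16.4, 16.4 and 19.4 CPM with vehicle, 11.9, 13.9 and 12.5 with rapamycin, and 16.3, 14.6 and 17.6 with Torin-2. It fell with rapamycin (-0.45, SE 0.108, edgeR adjusted p = 0.00462) and did not pass with Torin-2 (-0.11, SE 0.106, edgeR adjusted p = 0.392). The difference between the compounds was 0.34 (SE 0.108, edgeR adjusted p = 0.0223), which was lost without rapamycin replicate 1 (0.0793) or 3 (0.0567), Torin-2 replicate 1 (0.0592) or 3 (0.095), or all replicates numbered 3 (0.116). Oas3 did not pass in any comparison, at 8.15 to 17.9 CPM with vehicle, 10.4 to 18.5 with rapamycin and 10.5 to 23.6 with Torin-2; without a filter it passed for Torin-2 (0.34, edgeR adjusted p = 0.0156).

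The Schlafen genes Slfn2 and Slfn5, of a family tied to growth restraint and viral restriction, both lie within chr11:82951349-83070678. Slfn2 was at 88.3, 75.0 and 94.4 CPM with vehicle, 118.7, 119.8 and 126.7 with rapamycin, and 115.3, 104.9 and 142.2 with Torin-2. Both treated groups lay above vehicle, by 0.50 (SE 0.108, edgeR adjusted p = 0.00221) with rapamycin and 0.49 (SE 0.108, edgeR adjusted p = 0.00158) with Torin-2. Slfn5 was at 23.5, 19.7 and 30.7 CPM with vehicle, 34.4, 28.9 and 35.4 with rapamycin, and 23.5, 23.1 and 28.2 with Torin-2. It was higher with rapamycin than with vehicle (0.42, SE 0.147, edgeR adjusted p = 0.0323) and lower with Torin-2 than with rapamycin (-0.40, SE 0.147, edgeR adjusted p = 0.0428). Neither call held throughout: the first was lost without vehicle replicate 1 (0.099) or 2 (0.114) or rapamycin replicate 1 (0.0882) or 3 (0.0986), and the second without vehicle replicate 1 (0.0563), rapamycin replicate 1 (0.107) or 3 (0.118), or Torin-2 replicate 1 (0.125) or 2 (0.129). Under library totals alone they stood at edgeR adjusted p = 0.0664 and 0.0725.

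The other effectors, Rsad2, Cmpk2, Ifit1, Ifit2, Ifit3, Mx1 and Xaf1, did not pass in any of the 3 comparisons with the filter and without the block. Rsad2 (viperin, which makes a chain-terminating nucleotide) was at 25.5, 16.3 and 33.0 CPM with vehicle, 18.4, 21.4 and 27.8 with rapamycin, and 23.2, 13.7 and 25.8 with Torin-2, with overlap of all groups. Its neighbour Cmpk2, a mitochondrial nucleotide kinase, was at 3.81, 2.72 and 3.47 CPM with vehicle, 1.80, 2.89 and 1.80 with rapamycin, and 4.60, 2.29 and 4.11 with Torin-2. The difference of Cmpk2 was -0.61 (SE 0.292, edgeR adjusted p = 0.102, or 0.0473 without a filter) with rapamycin relative to vehicle and 0.75 (SE 0.291, edgeR adjusted p = 0.0512) for Torin-2 against rapamycin. The latter passed with the block (edgeR adjusted p = 0.0463), under library totals alone (0.0339), without a filter (0.00867) and with the stricter filter (0.0496). It also passed by DESeq2 (adjusted p = 0.0449), and by edgeR without vehicle replicate 2 (edgeR adjusted p = 0.0485) or Torin-2 replicate 2 (0.0108). Without rapamycin replicate 2 both passed, at -0.88 (edgeR adjusted p = 0.0405) and 1.02 (0.0241). The 3 Ifit genes (chr19:34550694-34650009), which bind foreign RNA, had group means of 6.94, 5.66 and 5.90 CPM for Ifit2, 1.08, 1.66 and 1.86 for Ifit3, and 0.946, 0.678 and 0.887 for Ifit1, in the order vehicle, rapamycin, Torin-2. Ifit3 with Torin-2 was at 0.78 (SE 0.48, edgeR adjusted p = 0.175), and it passed at 1.36 (0.0422) without vehicle replicate 1 at 1.14 (0.0373) without Torin-2 replicate 2 and at 0.79 (0.0408) without a filter. Mx1, a GTPase gene, was the lowest of these 36 per length of annotated exon, at 0.166 CPM per kb. Its libraries ran from 0.0971 to 1.35 CPM with vehicle, 0.322 to 0.758 with rapamycin and 0.0531 to 0.781 with Torin-2. Xaf1, which promotes cell death, was at 2.33 to 4.62 CPM with vehicle and 3.48 to 5.75 with Torin-2. The difference of Xaf1 was 0.47 (SE 0.305, edgeR adjusted p = 0.195), or 0.0296 with the block and 0.0415 without vehicle replicate 3. Ifi44 was not tested, with 4, 0 and 5 counts with vehicle, 3, 4 and 3 with rapamycin, and 6, 6 and 17 with Torin-2. Without the filter, Ifi44 was higher with Torin-2 than with vehicle by 1.69 (SE 0.71, edgeR adjusted p = 0.0466).

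The interferon-inducible GTPases, which coat and break the vacuoles of intracellular pathogens, rose or did not pass: 4 of 6 tested were higher with Torin-2 (beside 65.4% of all genes called and 32.5% higher) and 2 with rapamycin (beside 50.8% and 24.6%), and none was lower in any of the 3 comparisons. Gbp2 was at 0.728, 0.437 and 1.88 CPM with vehicle, 1.42, 1.09 and 1.20 with rapamycin, and 2.83, 2.66 and 4.32 with Torin-2. The Torin-2 libraries lay above all others, at 1.70 (SE 0.415, edgeR adjusted p = 0.00336) against vehicle and 1.42 (SE 0.413, edgeR adjusted p = 0.0139) against rapamycin, the latter lost without Torin-2 replicate 3 (0.0645). Rapamycin against vehicle was 0.28 (SE 0.451, edgeR adjusted p = 0.632), and it passed at 1.05 (0.0393) without vehicle replicate 3. Gbp3 was low throughout, with 0.300, 0.340 and 0.337 CPM with vehicle, 0.901, 0.90 and 0.401 with rapamycin, and 0.856, 0.691 and 1.36 with Torin-2. It was higher with Torin-2 (1.58, SE 0.424, edgeR adjusted p = 0.006), from vehicle libraries that all lay below the filter's level of 0.483 CPM. The rapamycin difference of Gbp3 (1.15, SE 0.443, edgeR adjusted p = 0.0475) did not hold with the block (0.0557), under library totals alone (0.0662), without a filter (0.0679) or by DESeq2 (adjusted p = 0.0913). Without single libraries its edgeR adjusted p was 0.124, 0.0942 and 0.0891 (vehicle replicates 1, 2 and 3), 0.135 and 0.157 (rapamycin replicates 1 and 2), and 0.0624 and 0.0515 (Torin-2 replicates 1 and 2). Gbp7, in a row with Gbp3 and Gbp2 (chr3:142530342-142638008), had at most 2 counts in a library and was not tested.

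Among the immunity-related GTPases, Irgm2 was at 8.35, 7.76 and 9.44 CPM with vehicle, 12.6, 13.8 and 13.3 with rapamycin, and 14.1, 16.5 and 16.1 with Torin-2. No treated library reached down to the vehicle range, and the rises were 0.87 (SE 0.106, edgeR adjusted p = 1.59e-05) with Torin-2 and 0.64 (SE 0.107, edgeR adjusted p = 0.000437) with rapamycin. Irgm1, which restrains the other members of the family, rose with Torin-2 only: it was at 20.3, 21.1 and 21.6 CPM with vehicle, 23, 21.5 and 23 with rapamycin, and 25.7, 30.1 and 31.7 with Torin-2. The differences were 0.47 (SE 0.086, edgeR adjusted p = 0.000408) against vehicle and 0.38 (SE 0.086, edgeR adjusted p = 0.0035) against rapamycin. Igtp (Irgm3), whose exons overlap those of Irgm2, and Ifi47, whose exons overlap those of Olfr56, did not pass in any of the 3 comparisons. Igtp had group means of 5.78, 6.1 and 6.4 CPM and Ifi47 of 4.97, 4.85 and 4.75 CPM, in the order vehicle, rapamycin, Torin-2.

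In the group of feedback, ubiquitin and ADP-ribosylation genes, 4 of 6 rose with Torin-2 (beside 65.4% of all genes called and 32.5% higher) and 2 with rapamycin (beside 50.8% and 24.6%), and none was lower in any of the 3 comparisons. Dtx3l, a ubiquitin ligase, and its partner Parp9, an ADP-ribosylation factor, lie head to head with overlapping exons, beside Parp14 (chr16:35832874-35972605, GRCm38). Dtx3l was at 23.2, 20.2 and 24.4 CPM with vehicle, 30.3, 27.9 and 32.2 with rapamycin, and 56.0, 48.1 and 60.5 with Torin-2. All 3 groups stood apart, with a log2 fold change of 1.28 (SE 0.1, edgeR adjusted p = 3.71e-07) for Torin-2, 0.41 (SE 0.101, edgeR adjusted p = 0.00501) for rapamycin and 0.87 (SE 0.099, edgeR adjusted p = 2.28e-05) between the compounds. Parp9 was at 13.8, 13.4 and 14.3 CPM with vehicle, 11.2, 13.7 and 14.6 with rapamycin, and 21.2, 20.3 and 24.5 with Torin-2. Here only Torin-2 stood apart, at 0.67 (SE 0.109, edgeR adjusted p = 0.000178) against vehicle and 0.74 (SE 0.11, edgeR adjusted p = 0.000184) against rapamycin. Parp14, their neighbour, was at 27.8, 22.5 and 33.1 CPM with vehicle, 45.6, 42.9 and 47.5 with rapamycin, and 46.4, 40.0 and 49.1 with Torin-2. Both treated groups lay above vehicle, by 0.71 (SE 0.122, edgeR adjusted p = 0.000531) with rapamycin and 0.70 (SE 0.122, edgeR adjusted p = 0.000295) with Torin-2.

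Usp18, which removes Isg15 from proteins and blocks the type I receptor, was at 0.814, 0.582 and 1.83 CPM with vehicle, 1.35, 1.18 and 2.61 with rapamycin, and 2.94, 1.86 and 3.66 with Torin-2. Torin-2 lay above vehicle by 1.40 (SE 0.436, edgeR adjusted p = 0.0137), a call that was lost without vehicle replicate 1 (0.0577) or 2 (0.0508) or Torin-2 replicate 3 (0.0601). Rapamycin overlapped with vehicle (0.68, SE 0.454, edgeR adjusted p = 0.235). With the block, rapamycin passed against vehicle (0.0386), as did Torin-2 against rapamycin (0.0201), and without vehicle replicate 3 the rapamycin difference was 1.29 (edgeR adjusted p = 0.0336). Rtp4, a negative regulator of the response, was at 1.28, 0.582 and 3.47 CPM with vehicle, 0.579, 0.805 and 2.00 with rapamycin, and 2.25, 1.06 and 3.37 with Torin-2. All groups overlapped; Torin-2 against rapamycin was 0.97 (SE 0.631, edgeR adjusted p = 0.229), and passed with the block (0.0211). Trim30a, a ubiquitin ligase with near-identical neighbours, was at 43.6 to 47.3 CPM with vehicle, 43.2 to 51.6 with rapamycin and 47.3 to 52.7 with Torin-2, and did not pass in any comparison.

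Replicate 3 stood apart within every group for many of these genes. In 19 of the 36 (52.8%), replicate 3 was the highest library of vehicle, of rapamycin and of Torin-2 alike, beside 9.9% of all tested genes. By role this held for 6 of 6 feedback genes, 4 of 4 sensors, 7 of 16 effectors, 2 of 4 signalling factors and 0 of 6 GTPases. Rtp4 in replicate 3 was 3.71, 2.9 and 2.04 times the mean of the other replicates (vehicle, rapamycin, Torin-2), and Usp18 was 2.62, 2.06 and 1.52 times. The 8 fibroblast markers, of which 5 were tested and none was at 0 in every library, moved the other way in sum. Their summed level was 41.4, 30.0 and 10.1 CPM with vehicle, 85.0, 60.7 and 13.8 with rapamycin, and 10.2, 9.67 and 3.33 with Torin-2, lowest in replicate 3 each time. Each of the 5 tested markers was lowest there too. Of those not tested, Dcn had 1, 2 and 3 counts with rapamycin and Pdgfra 7, 3 and 4, and Lum was at 0 with vehicle and rapamycin. The part of the fibroblast markers in the levels of the interferon-stimulated genes was not tested. What a replicate number stands for is not given in the sources used here. With all 3 such libraries left out, Irf7 was higher with rapamycin than with vehicle by 0.97 (edgeR adjusted p = 0.0041) and lower with Torin-2 than with rapamycin by a log2 value of -0.62 (0.0401). On the same 6 libraries Oasl2 rose with rapamycin by 1.01 (edgeR adjusted p = 0.00364), Gbp2 by 1.06 (0.0405), and Zbp1 with Torin-2 by 1.15 (0.0179).

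**Figure D3:**
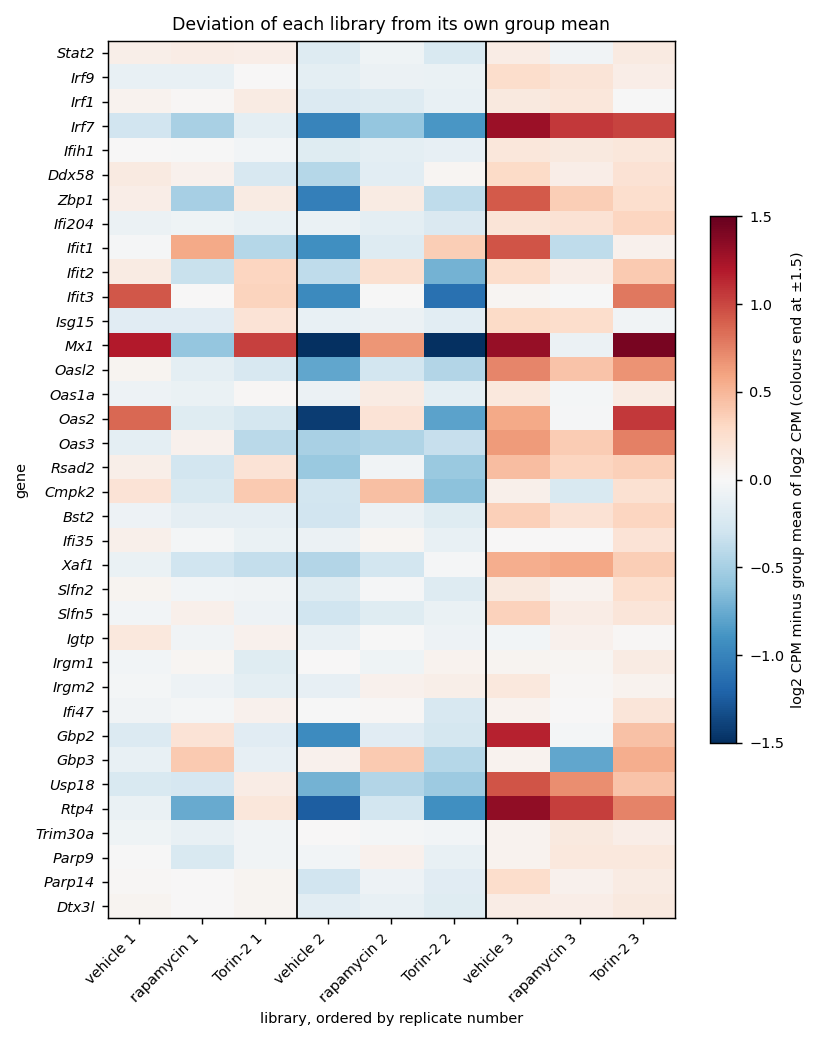
Colour shows each library's log2 CPM minus the mean of its own group, for the 36 tested genes (rows) and the 9 libraries (columns, ordered by replicate number; red is above the group mean, blue below, and colours end at 1.5). The 3 columns of replicate 3 are red for most rows, most deeply for Irf7 and Rtp4, while the rows of Igtp, Irgm1 and Ifi47 stay pale throughout.

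Promoter letters and response were set side by side without a test. Of 17 tested genes with an ISRE core in the window, 5 rose and 2 fell with Torin-2, with a median log2 difference of 0.14. Of 11 tested genes whose windows held none, 5 rose and 1 fell, with a median of 0.47; of all tested genes, 32.5% were higher and 32.9% lower. With rapamycin, 4 were higher and 3 lower with the core and 4 higher and 0 lower without it, beside 24.6% and 26.2% of all genes. Between the compounds, 3 were higher and 3 lower with the core and 3 higher and 1 lower without it, beside 24.2% and 24.1%. Of the genes that rose with Torin-2, windows of Gbp2, Gbp3, Ifih1, Irgm1 and Irgm2 held the ISRE core. Those of Irf1, Irf9, Oasl2, Dtx3l and Slfn2 did not, while Oas2, Usp18, Parp9 and Parp14 have no window in the table. Of the genes that fell with both compounds, Isg15 and Bst2, each window held overlapping ISRE cores.

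**Figure D4:**
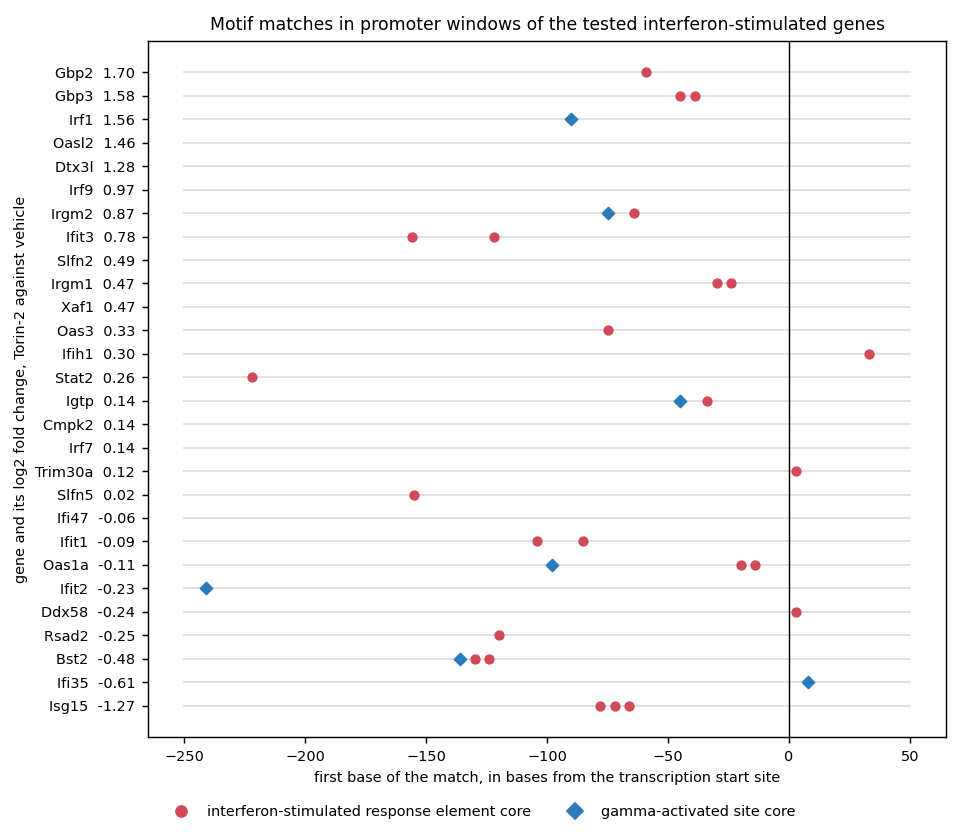
Each row is 1 of the 28 tested genes with a RefSeq promoter window, ordered by its log2 fold change for Torin-2 against vehicle (printed beside the name). For genes with more than 1 window (Irf1, Irf9, Gbp3, Ifit2 and Trim30a), only a window with the most matches is drawn. The x axis is the distance in bases from the transcription start. Red circles (ISRE core) and blue diamonds (GAS core) lie among the genes that rose, such as Gbp2, and those that fell, such as Isg15, which has 3 overlapping circles.

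The rest of the pathway was looked at with lists of ligands, receptors and signalling genes, and inducing genes. All 21 interferon ligand genes listed, from Ifnb1 to Ifng and the Ifna family, were at 0 counts in each library, where 3 counts would be 0.123 to 0.193 CPM. Reads shared by the near-identical Ifna copies may have been left out in counting, which is not given in the sources used here; Ifnb1 has no such copy. Of the receptor genes, Ifnlr1 had at most 1 count in a library and was not tested. Ifngr1, the ligand-binding chain of the interferon gamma receptor, was at 139.6, 114.5 and 137.8 CPM with vehicle, 306.7, 290.9 and 299.8 with rapamycin, and 299.1, 320.0 and 289.1 with Torin-2. Both compounds lay far above vehicle, by 1.19 (rapamycin, edgeR adjusted p = 3.47e-07) and 1.21 (Torin-2, edgeR adjusted p = 5.63e-08). Its partner Ifngr2 rose by 0.32 with rapamycin (edgeR adjusted p = 0.00027) and by 0.54 with Torin-2 (1.55e-06). The type I receptor chains rose with rapamycin, Ifnar1 by 0.64 (edgeR adjusted p = 4.96e-06) and Ifnar2 by 0.48 (0.00211). With Torin-2 they did not pass (0.10, edgeR adjusted p = 0.131, and -0.07, 0.548), and both were lower than with rapamycin (-0.53, 1.61e-05, and -0.56, 0.000842).

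Of the 15 tested receptor and JAK-STAT genes, 10 were higher and 2 lower with Torin-2, 11 higher and 1 lower with rapamycin, and 5 higher and 5 lower between the compounds, beside 65.4%, 50.8% and 48.2% of all tested genes called. Socs1, an inhibitor of the receptor kinases that interferon induces, fell with Torin-2 from 2.81 ± 0.427 to 0.595 ± 0.18 CPM (mean ± SD, n = 3; log2 fold change -2.24, edgeR adjusted p = 5.04e-05). With rapamycin it fell by -1.25 (edgeR adjusted p = 0.00365). Between the compounds Socs1 differed by -1.0 (edgeR adjusted p = 0.0283), lost without rapamycin replicate 1 (0.053) or 2 (0.123) or Torin-2 replicate 1 (0.0759) or 3 (0.103). Other brakes rose with Torin-2, the phosphatase Ptpn2 by 0.77 and Pias1, a SUMO ligase, by 0.74, as did the kinase Jak2 (0.60).

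Among the 27 tested genes that lead to interferon production, 13 were higher and 8 lower with Torin-2, 8 higher and 5 lower with rapamycin, and 6 higher and 7 lower between the compounds, beside 65.4%, 50.8% and 48.2% of all tested genes called. Tlr7, the endosomal sensor of single-stranded RNA, rose stepwise from 122.8, 113.8 and 115.5 CPM with vehicle over 196.4, 174.3 and 207.2 with rapamycin to 379.7, 383.6 and 370.0 with Torin-2. Its groups were far apart, at 1.69 (edgeR adjusted p = 1.77e-09) for Torin-2 and 0.71 (5.36e-06) for rapamycin. Irf2, which competes with Irf1 at its sites, rose by 1.17 and 1.16 with Torin-2 and rapamycin, and Irf5 by 0.81 and 1.09. Irf3, the factor that first switches on interferon beta, rose with Torin-2 (0.36, edgeR adjusted p = 0.0112) and did not pass with rapamycin (0.12, 0.383). Irf8, a macrophage lineage factor, fell with Torin-2 (-0.26, edgeR adjusted p = 0.0219). Dhx58 (LGP2), an interferon-induced helicase of the Ddx58 family, fell from 18.5, 14.3 and 19.9 CPM with vehicle to 12.6, 11.8 and 12.9 with rapamycin and 7.33, 5.90 and 7.52 with Torin-2 (-0.50 and -1.34, edgeR adjusted p = 0.00802 and 3.93e-06).

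**Figure D5:**
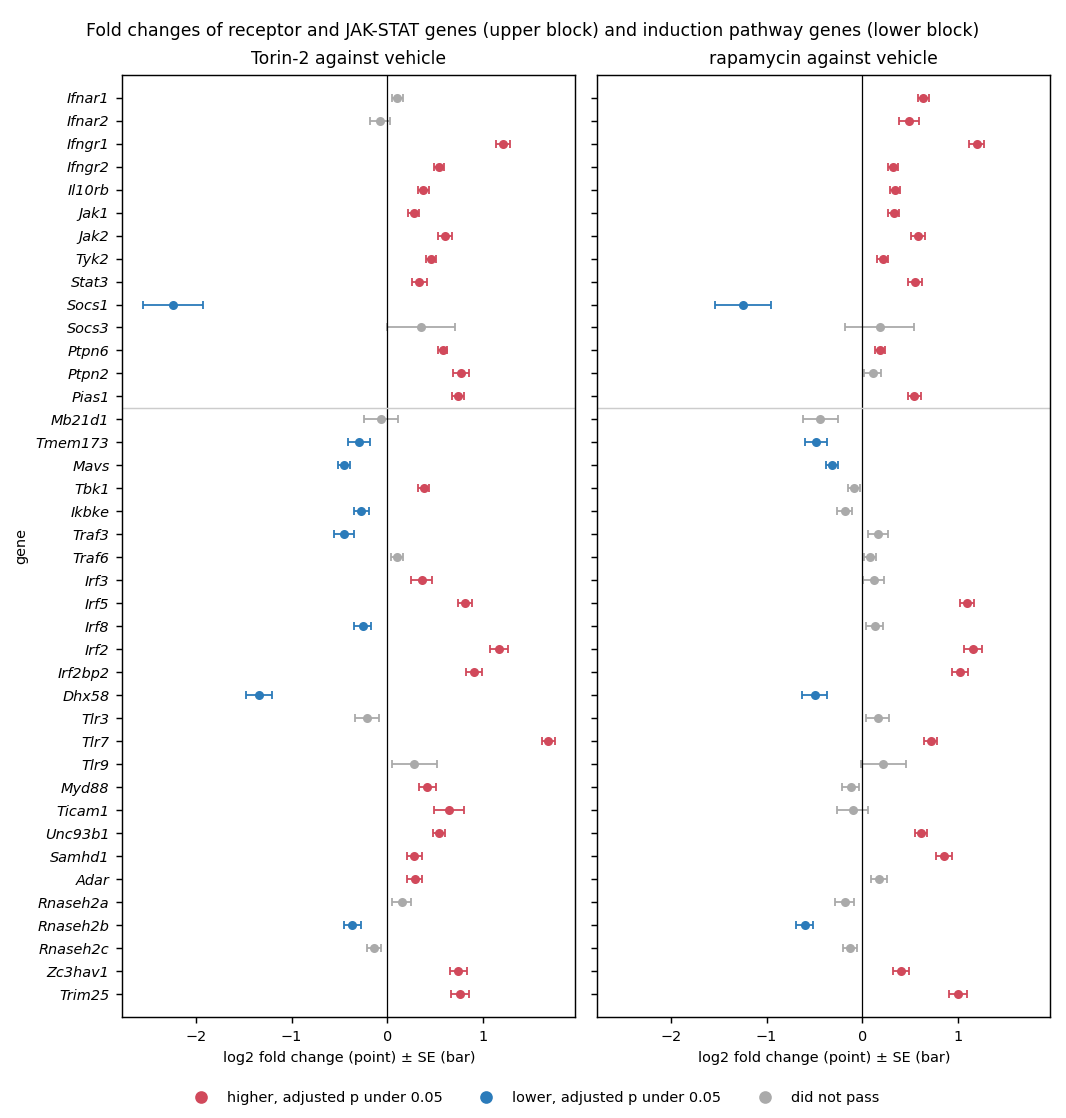
Log2 fold change (point) and SE (bar) of 40 pathway genes that are not among the 38, for Torin-2 against vehicle (left) and rapamycin against vehicle (right); receptor and JAK-STAT genes lie above the grey line and induction genes below it. Ifngr1, Irf2 and Irf5 are red in both panels, and Socs1 and Dhx58 are blue in both.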

How the data were processed

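Deposited values were raw counts per gene for 9 libraries; per the labels, these came from NuGEN Universal Plus mRNA-seq libraries read as 100 bp pairs from separate mice. STAR 2.5.2a, bcl2fastq and FastQC, with builds mm10 and GRCm38.p6, are named in the submitters' processing notes. Not given in the sources used here are the annotation release, the strand setting and the counting tool, so overlapping genes and near-identical copies are uncertain.

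The tests used edgeR 4.0.16 (limma 3.58.1, R 4.3.3): filterByExpr kept 12511 of 53342 genes, TMM factors were 0.955 to 1.05, and 1 quasi-likelihood fit held all 3 groups, with Benjamini-Hochberg adjustment over all tested genes (threshold 0.05). The common biological coefficient of variation was 9.96%. In data simulated for Torin-2 against vehicle (12314 genes), 80.6%, 91% and 100% of genes changed 1.5-, 2- and 4-fold were recovered. The simulation gave every gene the common coefficient of variation and had no replicate effect, and the changed genes stood at 1 CPM or more. These rates therefore do not cover members below 1 CPM or members that vary more between replicates. Same-numbered libraries of different groups deviated together (correlations 0.168 to 0.5 in all 9 pairs, against -0.358 to 0.162 in the 18 others). The ranges nearly meet, and what the shared numbers mark is not given in the sources used here. The replicate block was therefore run as an alternative. Calls and counts are from the fit without it unless the block is named. Alternatives were the replicate block, DESeq2 1.42.0, library totals alone, no filter, a stricter filter of mean 1 CPM, only the 2 groups compared, each library left out, and all replicates numbered 3 left out.

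The members and gene lists were chosen with earlier results of these data known. All 38 members are accounted for; the members with values in every library are, per role, the up to 3 with the largest change for each compound at a mean of 1 CPM or more, the 3 highest per exon length, and further ones chosen after their values were seen (Ifi35, Oas1a, Slfn5, Rsad2, Gbp3 and Parp9). Pathway genes named are some, not all, of the up to 4 that changed most in each direction, with the receptor chains, Irf3, Irf8, Cxcl10 and Ifnb1. Rnf31 was named for its overlap with Irf9. Some genes of these lists are counted with their list and not reported here on their own. Coordinates and exon lengths are from GENCODE M21 (GRCm38), which held 53237 of the gene identifiers.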

Additional observations from a re-analysis of the deposited data

How the results depend on the processing

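The values below are counts of members past the threshold by edgeR unless named otherwise. None of the members' fold changes that passed turned direction under the alternatives run. Of the 17 members called for Torin-2 against vehicle, 14 kept their call in every alternative that tested them (not Ifih1, Bst2 and Usp18). For rapamycin against vehicle 8 of 13 did so (not Ifih1, Isg15, Bst2, Slfn5 and Gbp3). For Torin-2 against rapamycin it was 6 of 12 (not Irf9, Ddx58, Isg15, Oas1a, Slfn5 and Gbp2). Gbp3, at a mean of 0.676 CPM, was not tested under the stricter filter of mean 1 CPM. For Torin-2 against rapamycin, library totals alone gave 2 members lower in place of 4, the fit with no filter 13 higher in place of 8, and the replicate block 13 higher; the cause was not tested. Leaving out each library in turn gave 12 to 18 higher and 2 to 4 lower for Torin-2 against vehicle, 7 to 13 and 1 to 3 for rapamycin against vehicle, and 5 to 9 and 2 to 5 between the compounds. Of the members' calls, the replicate block ended only that of Gbp3 with rapamycin and added 14, each given above. Library totals alone moved the median of all genes for rapamycin against vehicle from 0.00 to -0.10, with 37.4% of all calls higher in place of 48.5% and 7 members higher and 3 lower (70% higher in place of 76.9%). Between the compounds it gave 59.7% of all calls higher in place of 50.1%, and 10 members higher and 2 lower (83.3% in place of 66.7%). Over members and comparisons, calls gained and lost were 15 and 1 without a filter, 8 and 2 with all replicates numbered 3 left out, 2 and 5 under library totals alone, 2 and 2 by DESeq2, and 20 and 47 over the 9 fits that leave out a library. The calls gained without a filter were Stat2, Zbp1, Ifi204, Ifit3 and Oas3 for Torin-2 against vehicle. For rapamycin against vehicle they were Irf7, Oasl2 and Cmpk2. Between the compounds they were Irf7, Zbp1, Ifi204, Oasl2, Cmpk2, Usp18 and Rtp4. DESeq2 gave 15 and 2, 9 and 3, and 9 and 4 members in the 3 comparisons. At this depth, 3 counts are 0.123 to 0.193 CPM, which bounds what could be seen of Ifi44 and Gbp7.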

Other observations

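Beyond the 38 genes, a longer list of other interferon-stimulated genes held 129 symbols, of which 95 were tested. With Torin-2, 31 were higher and 32 lower than with vehicle, and with rapamycin 22 were higher and 25 lower, with median log2 differences of -0.05 and 0.03. That is 66.3% called with Torin-2 and 49.5% with rapamycin, close to the 65.4% and 50.8% of all tested genes. Among those that rose with Torin-2, Rnf114, a ubiquitin ligase, was at 59.9 ± 0.607 CPM with vehicle, 111 ± 17.1 with rapamycin and 264 ± 15.9 with Torin-2 (mean ± SD, n = 3 each; log2 fold change 2.14, edgeR adjusted p = 4.05e-09). Ly6e, a lipid-anchored surface protein that restricts coronavirus entry, went the other way, from 196.6, 147.0 and 266.8 CPM with vehicle over 118.6, 109.9 and 137.8 with rapamycin to 34.3, 34.9 and 44.4 with Torin-2 (-2.42, edgeR adjusted p = 3.82e-07). Wars, the tryptophan tRNA synthetase that interferon gamma induces, fell by 1.82 with Torin-2 and 0.78 with rapamycin on the log2 scale. Ms4a6b was lower with rapamycin (-2.30) than with Torin-2 (-0.75), and the difference between the compounds was 1.55 (edgeR adjusted p = 0.000902). Gvin1, a very large inducible GTPase, was lower with Torin-2 by -2.36 against vehicle and -2.69 against rapamycin. Its Torin-2 libraries held 8, 3 and 5 counts (0.428, 0.159 and 0.206 CPM), below the filter's level of 0.483 CPM, so its place among the tested genes rests on the other groups.

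Replicate 3 was the highest library of all 3 groups in 43 of these 95 genes (45.3%, beside 9.9% of all tested genes). The same held for 7 of 27 induction pathway genes (25.9%) and 1 of 15 receptor and JAK-STAT genes (6.67%). The chemokine Ccl5 was at 33.6, 18.8 and 91.0 CPM with vehicle, 108.8, 72.5 and 309.8 with rapamycin, and 145.1, 107.3 and 343.6 with Torin-2. It passed with both compounds (2.06, edgeR adjusted p = 0.0137 for Torin-2, and 1.78, 0.0355 for rapamycin), and the block brought these to 2.43e-10 and 6.48e-09. Without single libraries the Torin-2 rise of Ccl5 was lost at vehicle replicate 1 (edgeR adjusted p = 0.0557) and Torin-2 replicate 3 (0.0761), and the rapamycin rise at vehicle replicate 1 (0.117) or 2 (0.101) and rapamycin replicate 3 (0.92 in log2, 0.224), as by DESeq2 (0.0585). Cxcl10, a chemokine of acute interferon responses, had 2, 1 and 10 counts with vehicle, 0, 3 and 0 with rapamycin, and 2, 0 and 0 with Torin-2, and was not tested.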
